A study of Mus musculus with 12 samples.

Results

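Arginine and nitric oxide metabolism was followed through 6 genes of the 55487 counted per library, namely Nos2, Slc7a2, Ass1, Asl, Gch1 and Odc1. They were taken by gene symbol, through the Ensembl identifier of each counted gene. All 6 passed the filter on low counts in both experiments. In the first experiment, bone marrow-derived macrophages (BMMs) were grown with macrophage colony-stimulating factor from the limb bones of mice that had been ovariectomised (OVX, 3 libraries) or sham-operated (3 libraries). Ovariectomy removes the main source of estrogen and is a standard model of postmenopausal bone loss. In the second, mesenchymal stem cells (MSCs), the adherent cells of mouse limb bone marrow at passage 3, were cultured alone (MSC, 2 libraries), together with untreated RAW264.7 cells, a mouse macrophage line (MSC+RAW, 2 libraries), or with such cells after treatment with the bacterial endotoxin lipopolysaccharide, LPS (MSC+RAW-LPS, 2 libraries). The labels give C57BL/6 and an age of 8 weeks for all groups and name no engineered allele. For these libraries the sources used here do not state whether the MSCs and the RAW264.7 cells were kept apart in culture or before RNA extraction, so transcripts of the 2 cell types cannot be told apart in the co-cultures.

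Arginine feeds several pathways. Inducible nitric oxide synthase, encoded by Nos2, turns it into nitric oxide and citrulline with tetrahydrobiopterin as cofactor, and GTP cyclohydrolase 1 (Gch1) makes the first intermediate of that cofactor. From ornithine, another product of arginine, ornithine decarboxylase (Odc1) makes putrescine, the first polyamine. The cationic amino acid transporter Slc7a2 brings arginine into the cell, while argininosuccinate synthase (Ass1) and argininosuccinate lyase (Asl) rebuild it from citrulline. In macrophages, Nos2 is a widely used mark of activation by endotoxin and interferon.

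The genes lie on 6 chromosomes of GRCm38. Nos2 (ENSMUSG00000020826) is at chr11:78920787-78960254 on the plus strand. Slc7a2 (ENSMUSG00000031596) is at chr8:40862396-40922308 and Ass1 (ENSMUSG00000076441) at chr2:31470207-31520672, both on the plus strand. Asl (ENSMUSG00000025533) is at chr5:130011258-130029247 and Gch1 (ENSMUSG00000037580) at chr14:47153895-47189413, both on the minus strand, and Odc1 (ENSMUSG00000011179) at chr12:17544794-17551505 on the plus strand. All are protein-coding. Gch1 overlaps 2 pseudogenes and Odc1 a small nucleolar RNA gene, each of which held at most 34 counts in any library.

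The 250 bases before the RefSeq start site (GRCm38.p6) are shown for the 3 members that have an entry in the sequence table used here, because Ass1 and Gch1 were both lower in OVX than in sham BMMs and both higher in MSC+RAW-LPS than in MSC, while Odc1 was called in neither comparison. They are Ass1 at chr2:31470020-31470269 (plus strand), Gch1 at chr14:47189414-47189663 (minus strand) and Odc1 at chr12:17544623-17544872 (plus strand), each printed 5′ to 3′ along its own strand. Capitals mark a match to one of the motifs searched.
Ass1: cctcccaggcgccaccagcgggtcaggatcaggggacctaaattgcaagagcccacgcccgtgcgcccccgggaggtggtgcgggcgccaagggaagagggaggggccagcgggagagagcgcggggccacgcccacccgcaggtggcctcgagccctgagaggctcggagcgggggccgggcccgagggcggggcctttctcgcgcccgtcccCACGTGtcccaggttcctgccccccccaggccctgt
Gch1: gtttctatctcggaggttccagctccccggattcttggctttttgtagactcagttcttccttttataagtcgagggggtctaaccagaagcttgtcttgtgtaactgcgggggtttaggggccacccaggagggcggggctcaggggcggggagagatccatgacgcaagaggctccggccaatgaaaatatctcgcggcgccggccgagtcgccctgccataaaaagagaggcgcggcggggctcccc
Odc1: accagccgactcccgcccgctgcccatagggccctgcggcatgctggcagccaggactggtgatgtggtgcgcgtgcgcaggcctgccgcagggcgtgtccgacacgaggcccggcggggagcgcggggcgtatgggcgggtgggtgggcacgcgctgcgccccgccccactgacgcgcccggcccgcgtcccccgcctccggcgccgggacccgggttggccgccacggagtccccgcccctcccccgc

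Both strands were searched for a kB site (GGGACTNTC), a GAS element (TTCNNNGAA), the core of a hypoxia response element (ACGTG), an E-box (CACGTG), a C/EBP site (TTGCNNNAA) and a CRE (TGACGTCA), which are letters known from interferon, endotoxin, hypoxia and cyclic AMP responses, among others. Ass1 held an E-box that began 36 bases before the RefSeq start. The letters of the E-box always contain the hypoxia core on both strands, so its match there is not a separate one. GENCODE starts Ass1 and Odc1 upstream of the RefSeq start, so their windows overlap the gene positions given above and this E-box lies inside the GENCODE gene. Among all 32851 windows of the table, 6.02% held the E-box, 16.6% the hypoxia core, 0.95% the kB site, 7.02% the GAS element, 8.29% the C/EBP site and 1.55% the CRE. Gch1 and Odc1 matched none of these letters. The windows were rich in G and C, with 75.6% for Ass1, 59.2% for Gch1 and 80.0% for Odc1 against a median of 52.4% over all windows. They held 23, 17 and 35 CpG dinucleotides, where the median window held 6.

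Levels are given as CPM, the count of a gene scaled to a fixed library total, on TMM-normalised library sizes within each experiment, and as RPKM (CPM per kilobase of exon) where genes are compared with each other. Library totals ran from 17012923 to 45367105 counts. Sham replicates 2 and 3, and the MSC+RAW libraries A and B, differed far less than the other pairs within a group, with a ratio of chi-square to its sampling value of 2.58 to 3.35 at low and at high counts. Sampling alone would give a ratio of 1, so they were not identical. A and B are names only, since the column numbers do not match the replicate numbers of the labels. Both MSC+RAW columns carry the same sample name and differ in library number. Whether they come from 1 sample is not stated. In the other pairs within a group this ratio reached 23.3 to 149.9 at high counts. Each of these 2 near-identical pairs was therefore summed and counted as 1 sample, which left 2 sham, 3 OVX, 2 MSC, 1 MSC+RAW and 2 MSC+RAW-LPS samples. With every library its own sample, the number of members called was the same in each of the 4 comparisons. The labels do not say that samples of a group came from separate mice or cultures, so p-values measure the spread between these samples, which may be technical. A gene was called when its fold change was at least 2 and its adjusted p at most 0.05 in edgeR's quasi-likelihood test over all genes.

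The labelled cell types were compared with marker genes. All 15 macrophage markers were above 0 in all 12 libraries, the MSC libraries included, where their summed level was 28860 to 28941 CPM in MSC, 38593 to 39166 CPM in MSC+RAW and 14926 to 15565 CPM in MSC+RAW-LPS. Lyz2, the macrophage lysozyme, made up most of it, with 21597 to 21688 CPM in MSC. Csf1r was at 1060 to 1160 CPM and Adgre1 at 511 to 584 CPM in MSC. The libraries labelled MSC thus held macrophage transcripts too, so levels there cannot be assigned to MSCs alone. Of 14 stromal markers, Thy1, a surface protein used to define MSCs, stayed at 0.240 to 2.16 CPM in the MSC experiment, while the collagen gene Col1a1 was at 453 to 794 CPM there and at 1903 to 2052 CPM in the BMMs. Other markers of that list stood higher in the MSC experiment, such as Eng, at 61.6 to 131 CPM there and at 18.4 to 30.0 CPM in BMMs, and Pdgfrb, at 139 to 167 CPM and at 91.0 to 114 CPM, although the experiments were normalised separately. The summed stromal level was 2182 to 4094 CPM in the MSC experiment and 7202 to 8158 CPM in BMMs. Lymphoid markers summed to at most 4.36 CPM in any library and dendritic markers to at most 4.65 CPM. Of the 8 neutrophil markers, S100a8 took 341 to 517 CPM in MSC+RAW-LPS, while its usual partner S100a9 and Ly6g were at or below 0.0600 CPM. Camp was at 28.6 to 39.7 CPM in MSC+RAW-LPS and at 0.469 to 0.714 CPM in MSC. All 8 summed to 807 to 943 CPM in sham and to 1197 to 1331 CPM in OVX, without overlap. In bulk RNA, fewer cells of a type and less RNA per cell cannot be told apart.

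**Figure D1:**
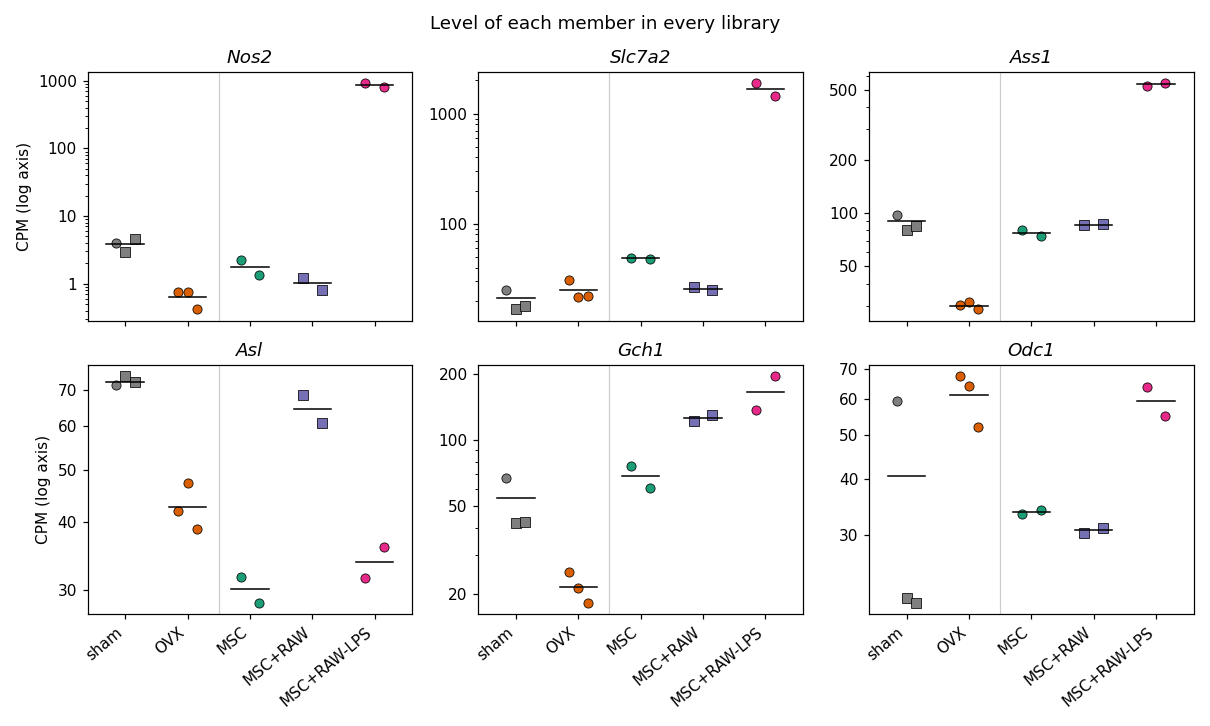
CPM of each member (vertical log axis) in the 12 libraries, by group (horizontal axis), with a bar at the mean over samples and squares for the near-identical pairs that count as 1 sample. Nos2, Slc7a2 and Ass1 stand far above the other MSC groups in both MSC+RAW-LPS libraries, and Nos2, Ass1 and Gch1 are lower in every OVX library than in every sham library; the vertical line parts experiments that were normalised separately.

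The plot of levels by library shows the 2 patterns that the values below describe. Within the MSC experiment, the MSC+RAW-LPS libraries stand apart for the transporter, for the nitric oxide synthase, and for Ass1. Within the BMM experiment, the OVX libraries lie below the sham libraries for Nos2, Ass1 and Gch1.

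In OVX BMMs, 3 of these transcripts were lower than in sham BMMs. Nos2, the inducible synthase, was 6.09-fold lower, Ass1, which acts in the rebuilding of arginine, 3.03-fold and Gch1, the first enzyme of the cofactor, 2.56-fold. Of the 6 members, 3 were called lower, where 3.08% of the 16768 genes tested were, and 0 were called higher, where 5.39% were. No member was higher at an unadjusted p under 0.05 (0 members) or in DESeq2 (0 members). The median log2 fold change was -1.07 over the members and -0.01 over all genes tested.

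Nos2 was weakly expressed in these macrophages. It was at 4.04, 2.91 and 4.51 CPM in sham replicates 1 to 3, from 155, 46 and 93 counts. OVX replicates 1 to 3 held 0.761, 0.758 and 0.415 CPM, from 25, 29 and 14 counts. All OVX libraries lay below all sham libraries. The means were 0.645 ± 0.199 CPM (SD, n = 3) in OVX and 3.87 ± 0.231 CPM (SD, n = 2) in sham, and the log2 fold change was -2.61 (SE 0.36, adjusted p = 0.0074). In the order of all 16768 genes tested by log2 fold change, Nos2 was the number 54 from the lowest.

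Gch1, which supplies the cofactor of that enzyme, was at 67.3, 42.1 and 42.5 CPM in sham and at 25.1, 21.2 and 18.2 CPM in OVX. The groups did not overlap, although sham replicate 1 lay well above the other sham libraries. Its log2 fold change was -1.36 (SE 0.24, adjusted p = 0.0128). The call was lost without OVX replicate 2 (-1.34, adjusted p = 0.0733) and without sham replicate 1 (-0.98, adjusted p = 0.0181).

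Of the pair that rebuilds arginine, Ass1 was at 97.6, 80.4 and 85.1 CPM in sham and at 30.1, 31.5 and 28.5 CPM in OVX. The OVX libraries lay within 3 CPM of each other and far below sham, with a log2 fold change of -1.60 (SE 0.17, adjusted p = 0.0045). Asl was at 71.6, 74.2 and 72.4 CPM in sham and at 42.0, 47.3 and 38.9 CPM in OVX. It also did not overlap and passed the adjusted p (0.0264), but its log2 fold change of -0.77 (SE 0.17) was under the fold limit. Ass1 thus stood at 2.17 to 2.73 times the RPKM of Asl in sham libraries and at 1.33 to 1.47 times in OVX libraries.

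The transporter Slc7a2 was at 25.1, 16.7 and 18.0 CPM in sham and at 30.8, 21.7 and 22 CPM in OVX, with overlapping groups and a log2 fold change of 0.21 (95% CI -0.35 to 0.78). Odc1, the first enzyme of polyamine synthesis, was at 59.5, 21.8 and 21.2 CPM in sham and at 67.5, 64.3 and 52.1 CPM in OVX. Sham replicate 1 alone reached the OVX range. The log2 fold change of 0.59 (95% CI -0.27 to 1.45) did not pass, but without sham replicate 1 it was 1.51 and was called (adjusted p = 0.0042), and without the other sham sample it was 0.031 (adjusted p = 0.961). Either way sham is then 1 sample, assumed to vary like OVX.

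OVX and sham libraries also differed in how counts ran with the GC content of a gene. The rank correlation of a gene's deviation with its GC content was 0.207 to 0.508 in sham and -0.597 to -0.329 in OVX libraries, over 15763 genes. The transcripts of Nos2, Ass1 and Asl hold 53.9%, 54.7% and 55.5% G and C, above the median of 49.1% over the genes tested in either experiment, and that of Gch1 holds 45.9%. With trends on GC content and length removed, the log2 fold change was -2.29 for Nos2, -1.25 for Ass1 and -1.59 for Gch1, all still called, while Asl came to -0.40 (adjusted p = 0.175) and Slc7a2 to -0.24. The summed level of the macrophage markers was also lower in OVX (43576 to 48003 CPM) than in sham (59807 to 63850 CPM). Of these 15 markers, 3 were called lower and 1 higher. The sum of the neutrophil markers was higher in OVX (1197 to 1331 CPM against 807 to 943 CPM), with 0 of the 8 called and not all in that direction. The part of these shifts in the differences of the members was not tested.

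In MSC+RAW-LPS libraries, the arginine transporter, the inducible synthase, Ass1 and Gch1 were all above their level in MSC libraries. Nos2 was 472-fold, Slc7a2 34.0-fold, Ass1 6.91-fold and Gch1 2.43-fold higher. Of the 6 members, 4 were called higher, where 5.85% of 20499 genes were, and 0 were called lower, where 5.09% were. No member was lower at an unadjusted p under 0.05 (0 members) or in DESeq2 (0 members). The median log2 fold change was 2.03 over the members and -0.01 over all genes. Against MSC+RAW, 3 of 6 were called higher, where 15.4% of genes were, and 0 lower, where 12% were. In that comparison 1 member, Asl, was lower at an unadjusted p under 0.05, and DESeq2 called 0 lower. The median was 1.77 over the members and 0.14 over all genes. The 3 comparisons among MSC groups share samples, so their values are given side by side only, and the spread of MSC+RAW, which counts as 1 sample, was assumed to be that of the other groups.

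Nos2 was at 2.22 and 1.35 CPM in MSC replicates 1 and 2 and at 1.22 and 0.805 CPM in MSC+RAW libraries A and B. In MSC+RAW-LPS it was at 923 and 806 CPM, from 30766 and 25271 counts. These 2 libraries were far above the other 4, which held 28 to 109 counts. The log2 fold change was 8.88 (SE 0.26, adjusted p = 2.27e-12) against MSC and 9.68 (SE 0.37, adjusted p = 1.13e-10) against MSC+RAW. By log2 fold change it was number 14 from the highest of 20499 genes against MSC and number 38 against MSC+RAW.

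Slc7a2 was the most abundant member by CPM in MSC+RAW-LPS, at 1887 and 1436 CPM. It was at 49.2 and 48.4 CPM in MSC and at 26.6 and 24.9 CPM in MSC+RAW, so the 3 groups did not overlap. The log2 fold change of the transporter was 5.09 (SE 0.20, adjusted p = 5.14e-11) against MSC and 5.98 (SE 0.28, adjusted p = 8.62e-10) against MSC+RAW.

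The 2 enzymes that rebuild arginine from citrulline did not move together. Ass1 was at 79.8 and 74.4 CPM in MSC, at 85.3 and 86.5 CPM in MSC+RAW and at 525 and 543 CPM in MSC+RAW-LPS, a log2 fold change of 2.79 (SE 0.16, adjusted p = 3.00e-09) against MSC and 2.61 (SE 0.21, adjusted p = 1.88e-07) against MSC+RAW. Asl was at 31.8 and 28.5 CPM in MSC, at 68.5 and 60.8 CPM in MSC+RAW and at 31.6 and 36.0 CPM in MSC+RAW-LPS. It overlapped between MSC and MSC+RAW-LPS (log2 0.16, 95% CI -0.18 to 0.50), and was lower in MSC+RAW-LPS than in MSC+RAW by just under the fold limit (log2 -0.97, SE 0.19, adjusted p = 7.70e-04). Ass1 was at 33.3 and 30.2 times the RPKM of Asl in MSC+RAW-LPS, against 2.49 to 5.23 times in the other MSC libraries.

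Gch1 was at 76.4 and 60.7 CPM in MSC, at 122.5 and 130.5 CPM in MSC+RAW and at 137.9 and 195.5 CPM in MSC+RAW-LPS. It was called against MSC (log2 1.28, SE 0.18, adjusted p = 8.62e-05), while MSC+RAW and MSC+RAW-LPS did not differ beyond their spread (log2 0.37, 95% CI -0.11 to 0.85). Odc1 was at 33.4 and 34.1 CPM in MSC, at 30.3 and 31.1 CPM in MSC+RAW and at 63.9 and 55.3 CPM in MSC+RAW-LPS. It passed the adjusted p in both comparisons but not the fold limit, with a log2 fold change of 0.82 (SE 0.16, adjusted p = 0.0012) against MSC and 0.93 (SE 0.20, adjusted p = 0.0016) against MSC+RAW. Without MSC+RAW-LPS library B, both Odc1 (1.04) and Asl (-1.06) were called against MSC+RAW, and Asl also without MSC+RAW library B (-1.02). Without MSC+RAW-LPS library B both arms hold 1 sample, so the spread comes from MSC alone.

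**Figure D2:**
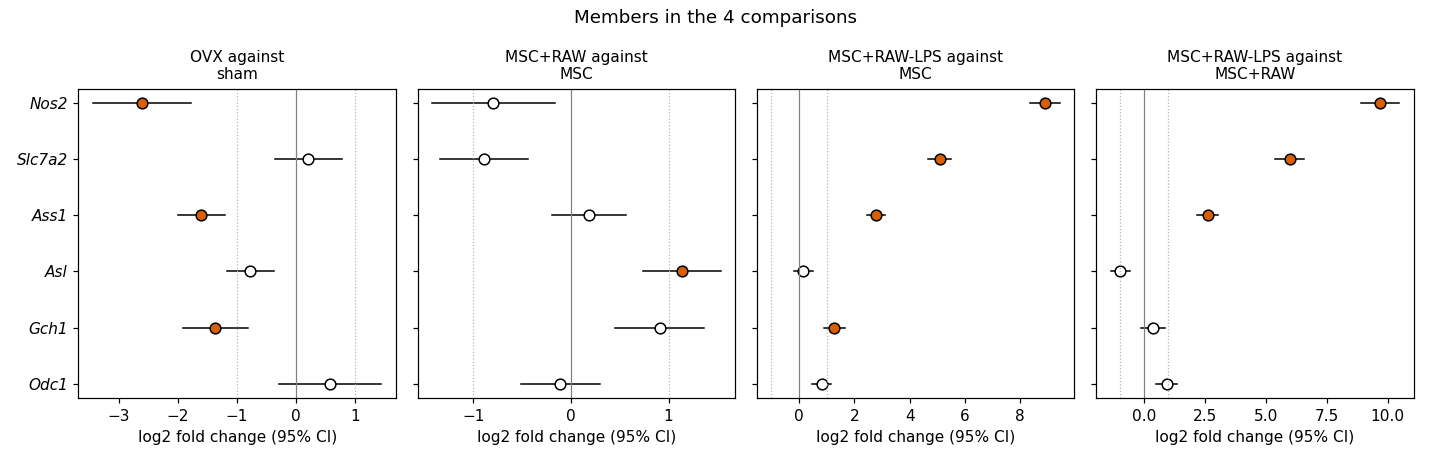
Log2 fold change of the 6 members (horizontal axis, each panel on its own scale) in the 4 comparisons, with 95% confidence intervals, filled points for called genes and dotted lines at the fold limit of 2. Nos2 is at -2.61 in OVX against sham and at 8.88 and 9.68 in the MSC+RAW-LPS comparisons, while Asl is called only in MSC+RAW against MSC.

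Co-culture with untreated RAW264.7 cells was compared with MSCs alone. Between MSC+RAW and MSC, 1 member was called higher, where 6.8% of 20499 genes were, and 0 lower, where 9.59% were. At an unadjusted p under 0.05, 2 members were lower, and DESeq2 called 0 lower. The median log2 fold change was 0.04 over the members and -0.13 over all genes. The called member was Asl, whose levels are given above, with a log2 fold change of 1.13 (SE 0.19, adjusted p = 6.54e-04). With trends on GC content and length removed it came to 0.73 and lost its call. With those trends removed, Nos2 (log2 -1.08, adjusted p = 0.0224) and Gch1 (log2 1.31, adjusted p = 0.0029) were called in its place, and Slc7a2 came to -0.31 (adjusted p = 0.217).

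Gch1 was higher (log2 0.91, SE 0.22) and Slc7a2 lower (log2 -0.89, SE 0.21), both at an adjusted p of 0.0059 and under the fold limit. Nos2 had a log2 fold change of -0.79 (95% CI -1.42 to -0.17, adjusted p = 0.0558). MSC+RAW held 28 to 50 counts of Nos2, so its level rested on few reads. Nos2 was called without MSC replicate 2 (-1.08) or without MSC+RAW library A (-1.17). It was -0.36 (adjusted p = 0.590) without MSC replicate 1 and -0.58 (adjusted p = 0.182) without MSC+RAW library B. Without MSC replicate 1 or 2, both arms hold 1 sample and the spread comes from MSC+RAW-LPS alone. Gch1 passed the fold limit without MSC replicate 1 (1.08). Ass1 (log2 0.18, adjusted p = 0.465) and Odc1 (log2 -0.11, adjusted p = 0.696) did not pass. In the order of levels over the MSC groups, Nos2, Ass1 and Odc1 were therefore highest in MSC+RAW-LPS. MSC and MSC+RAW were not told apart for Ass1 and Odc1, and for Nos2 the lower level in MSC+RAW had an adjusted p of 0.0558, which ran from 0.0080 to 0.590 over the alternatives. Slc7a2 was highest in MSC+RAW-LPS too, with MSC+RAW below MSC, Gch1 was lowest in MSC, and Asl was highest in MSC+RAW, with MSC and MSC+RAW-LPS not told apart. The differences of Slc7a2 and Gch1 between MSC and MSC+RAW, and that of Asl between MSC+RAW and MSC+RAW-LPS, passed the adjusted p but not the fold limit.

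Macrophage transcripts moved between these groups as well. Of the 15 macrophage markers, 1 was called higher and 6 lower in MSC+RAW-LPS against MSC, and 4 higher and 7 lower against MSC+RAW. Mrc1, the mannose receptor, was at 583 to 593 CPM in MSC and at 3.99 to 4.02 CPM in MSC+RAW-LPS, while the macrophage marker Adgre1 (F4/80) was at 511 to 584 CPM and at 1404 to 1535 CPM. Of the 14 stromal markers, 3 were called higher in MSC+RAW-LPS against MSC, and 5 higher and 1 lower against MSC+RAW. Between MSC+RAW and MSC, 4 macrophage markers were called higher and 1 lower, and 2 stromal markers higher and 2 lower. The part of these shifts in the values of the members was not tested. The libraries also differed in GC trend, with rank correlations of -0.302 to -0.140 in MSC and MSC+RAW-LPS and of 0.374 to 0.378 in MSC+RAW. The calls of MSC+RAW-LPS against MSC were the same 4 members with that trend removed. Against MSC+RAW, whose trend was the opposite, Nos2, Slc7a2 and Ass1 were still called after its removal and Odc1 was called as well (log2 1.21, adjusted p = 3.81e-04), while Asl came to -0.57 and Gch1 to -0.0011.

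Compared per length, the order of the members differed between groups. In sham BMMs Ass1 led, at 37.4 ± 4.36 RPKM (SD, n = 2), ahead of Asl at 15 ± 0.244 and Odc1 at 11.9 ± 7.89, which differed from each other by less than the spread of Odc1. In OVX BMMs Odc1 led, at 18.0 ± 2.39 RPKM (SD, n = 3), ahead of Ass1 at 12.4 ± 0.607. In MSC and MSC+RAW Ass1 led, at 32.0 ± 1.58 (SD, n = 2) and 35.6 RPKM, and Nos2 was last, at 0.403 ± 0.139 and 0.228 RPKM. In MSC+RAW-LPS, Ass1 at 221 ± 5.35, Nos2 at 195 ± 18.7 and Slc7a2 at 182 ± 34.9 RPKM (SD, n = 2) formed the top, and the last of these lay within 1 SD of Nos2. Gch1 followed at 26.7 ± 6.52 RPKM and Asl was last, at 7.0 ± 0.654 RPKM.

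The rest of the pathway was taken as 8 lists with 75 genes, of which 65 were tested in BMMs and 68 in the MSC experiment. In OVX against sham, 2 of the 65 were called higher and 2 lower, where 5.39% and 3.08% of all genes tested were. The list genes were tested without removal of the GC and length trends, which turned the split of all calls from 903 higher and 516 lower to 220 higher and 370 lower. Of these 4, 3 were transcription factors. Cebpd and the NF-kB subunit gene Nfkb2 fell by 1.19 and 1.15 on the log2 scale (adjusted p = 0.0093 and 0.0100), while Hif1a, encoding the hypoxia-inducible factor subunit, rose by 1.07 (adjusted p = 0.0289). The transporter Slc7a3 was the remaining call, at 1.83 ± 0.126 CPM in OVX and 0.719 ± 0.124 in sham. The median of the 14 transcription factors was -0.52 and that of the 14 polyamine genes tested -0.37, against -0.01 over all genes.

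In MSC+RAW-LPS against MSC, 5 of 68 pathway genes were called higher and 8 lower, where 5.85% and 5.09% of all genes were. The transcription factors accounted for 4 of those higher, with a list median of 0.77 against -0.01 over all genes. Hif1a was at 513 ± 33.3 CPM against 120 ± 23.0 (log2 2.09, adjusted p = 2.14e-07), Cebpb at 151 ± 27.0 against 40.9 ± 6.67 (log2 1.88), Nfkb2 at 142 ± 0.809 against 42.8 ± 0.290 (log2 1.73) and Nfkb1 at 250 ± 10.4 against 77.8 ± 4.72 (log2 1.68). Pparg fell by 1.54 on the log2 scale. The fifth gene called higher was Gchfr, the feedback regulator of GTP cyclohydrolase, at 3.17 ± 2.28 against 0.693 ± 0.233 CPM (log2 2.17, adjusted p = 0.0078).

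Most list genes outside the transcription factors were not called. Slc7a7, a further transporter of cationic amino acids, fell by 1.14 on the log2 scale, and Paox, a polyamine oxidase, by 1.88. Prodh, which breaks down proline, fell by 2.18, from 2.02 ± 0.986 CPM in MSC to 0.446 ± 0.0901 CPM in MSC+RAW-LPS. Nos1ap, named as an adaptor of the neuronal synthase Nos1, fell by 2.90, from 1.73 ± 0.328 to 0.229 ± 0.143 CPM. The creatine enzyme Gamt fell by 1.09 and the arginine deiminase Padi2 by 2.12. Padi4, of the same family, was at 0.0600 ± 0.0848 CPM in MSC+RAW-LPS and at 0.814 ± 0.0318 CPM in MSC.

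Against MSC+RAW, 7 of 68 were called higher and 13 lower in MSC+RAW-LPS, where 15.4% and 12% of all genes were. Hif1a rose by 3.02, Nfkb1 by 1.67, Nfkb2 by 1.36 and Myc by 1.18 on the log2 scale, and Pparg fell by 1.73. The tetrahydrobiopterin genes Spr and Pcbd2 fell by 1.14 and 1.56. The list genes were tested without removal of the GC and length trends here too. The GC trend of MSC+RAW was opposite to that of MSC+RAW-LPS, and MSC+RAW counts as 1 sample. Of the urea cycle, ornithine and proline list, 4 of 10 were called lower, with a median of -1.23 against 0.14 over all genes. They were the proline enzymes Pycrl, Prodh and Aldh4a1 (-1.74, -2.32 and -1.16) and the mitochondrial ornithine carrier Slc25a15 (-1.30).

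The remaining calls of that comparison were split. Among polyamine genes, Amd1 and the antizyme inhibitor Azin1 rose by 2.30 and 1.14 on the log2 scale, while Paox and the hypusine enzyme Dohh fell by 2.48 and 1.85. Amd1 has a near-identical copy in the mouse, so its counts are uncertain. Of the creatine enzymes, Gatm rose by 1.63 and Gamt fell by 3.12. Padi2 (-2.47), Prmt7 (-1.12) and Ddah2 (-2.03) were the others that fell.

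Between MSC+RAW and MSC, 9 of 68 were called higher and 3 lower, where 6.8% and 9.59% of all genes were. Of the 15 polyamine genes tested 5 were called, with Srm (spermidine synthase), Dohh and its substrate Eif5a higher by 1.52, 1.90 and 1.15, and Amd1 (-2.04) and the acetyltransferase Sat1 (-1.10) lower on the log2 scale. Spr and Pcbd2 rose by 1.13 and 1.34, Pycrl by 1.52, Gamt by 2.03 and Ddah2 by 1.58. Nos1ap fell by 2.35, from 1.73 ± 0.328 CPM in MSC to 0.338 CPM in MSC+RAW. Slc25a2, the last of those called, was at 1.03 CPM in MSC+RAW and at 0.0453 ± 0.0226 CPM in MSC. These list genes were also tested without removal of the GC and length trends, with which the member Asl lost its call. MSC+RAW counts as 1 sample.

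**Figure D3:**
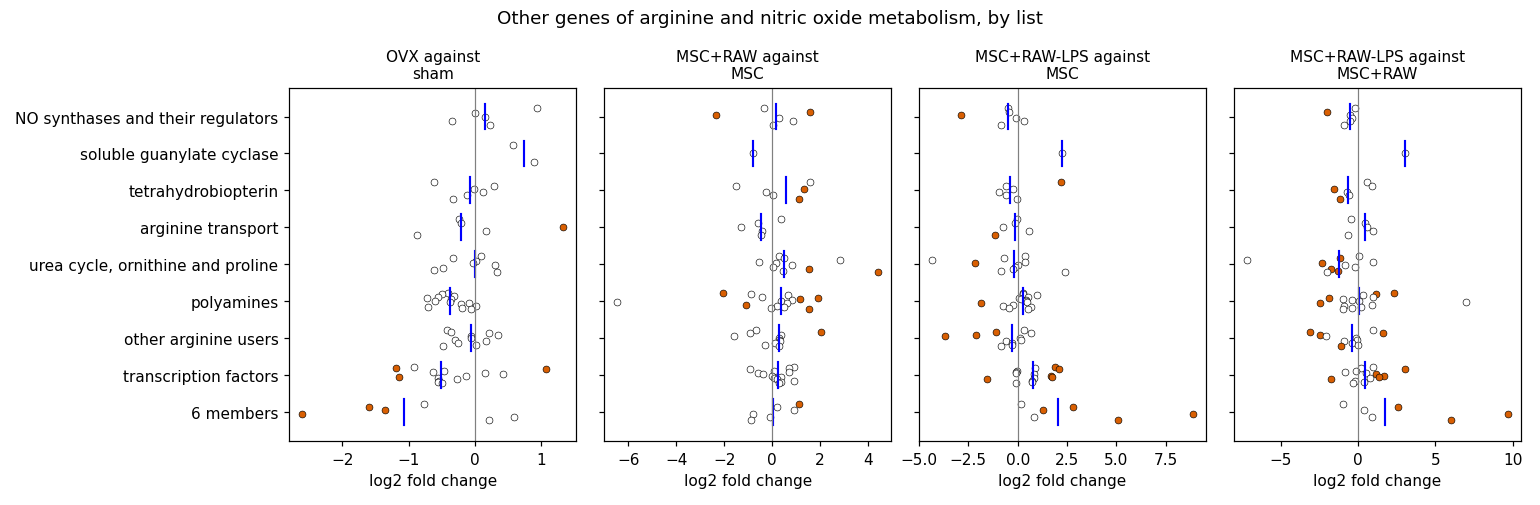
Log2 fold change (horizontal axis, each panel on its own scale) of every tested gene in 8 lists of pathway genes and of the 6 members, in the 4 comparisons, with filled points for called genes and a blue bar at the median. In the MSC+RAW-LPS comparisons the members have medians of 2.03 and 1.77, and the medians of the other lists run from -1.23 to 3.06, the latter a list with 1 tested gene.

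In the MSC+RAW-LPS panels of the plot of pathway lists, Nos2 lies above each list gene tested, while Asl, Odc1 and Gch1 lie within the range of the list genes. Nos3, the endothelial nitric oxide synthase, was at 0.377 ± 0.130 CPM in MSC, 0.455 in MSC+RAW and 0.354 ± 0.0503 in MSC+RAW-LPS, without a call, and the neuronal form Nos1 was below the filter on low counts in both experiments.

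The genes whose pattern was most like that of Nos2 were sought over the 12 libraries, by Pearson's r of log2 CPM among 16239 genes tested in both experiments. The libraries share experiments, groups and depth, and 40 genes had an r above 0.95, so r is given as a description. The 5 highest were Csf3, a granulocyte growth factor (0.990), the guanylate-binding protein gene Gbp3 (0.990), Pfkfb3, a regulator of glycolysis (0.984), the diacylglycerol kinase gene Dgkh (0.981) and the NAD-consuming ectoenzyme gene Cd38 (0.981). Csf3 was at 134 and 152 CPM in MSC+RAW-LPS and at most 0.575 CPM in the other MSC libraries. In BMMs it was at 0.696 to 1.31 CPM in sham and 0.0592 to 0.261 CPM in OVX, where it rested on few reads. This is the order seen for Nos2, but Csf3 was chosen by r over these same libraries, so the order is no separate evidence.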

How the data were processed

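RNA-seq was analysed for 12 libraries, 6 of BMMs and 6 of MSCs. According to the methods and the submitters' processing notes, the authors isolated poly(A) RNA, made directional libraries, trimmed reads with Trim Galore 0.6.7, mapped them to GRCm38 with HISAT2 2.1.0 and counted them per Ensembl gene with featureCounts 2.0.1. The deposited values are raw counts, without normalization or filter, and every column of values was used. Symbols were found for 55141 of 55487 identifiers, and GENCODE M21 gave positions for 55227.

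Some genes of the pathway and of the lists are not reported here. The members and lists were chosen with earlier results of these data known. Genes kept by filterByExpr were tested with edgeR 4.0.16 in R 4.3.3 (TMM, quasi-likelihood F-test, Benjamini-Hochberg). The 3 MSC groups were fitted together. Standard errors come from the fold change and its F statistic, and intervals are at 95%. Likeness and GC trends used log2 CPM with a prior count of 2. Libraries were held near-identical when their per-gene chi-square stayed flat as counts grew (minimum 20 counts per gene and pair). Named pathway genes are, per list and comparison, the 3 called with the largest change at a mean of at least 1 CPM, plus each call of a list with at most 5. The fits were tested on simulated data. Alternatives were every library as its own sample, RLE, DESeq2 1.42.0, no filter or a mean of at least 1 CPM, lowess trends (span 0.3) on GC content and length, libraries left out, blocks, and only the 2 groups compared. Tables and figures used python 3.11.15, pandas 2.3.3 and matplotlib 3.10.9.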

Additional observations from a re-analysis of the deposited data

How the results depend on the processing

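Of 348 log2 fold changes of members under the alternatives, 330 kept their direction and side of the threshold, 11 gained a call, 3 lost one and 4 that were not called changed sign. Nos2 and Ass1 in OVX against sham, and all 4 calls of MSC+RAW-LPS against MSC, were kept under every alternative run. The number of members called stayed at 4 there, ran from 3 to 5 against MSC+RAW and from 2 to 3 in OVX against sham without 1 library.

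In OVX against sham, 1419 genes were called. Without 1 library the number ran from 309 (without OVX replicate 2) to 2390 (without sham replicate 1), and it was 678 without OVX replicate 1. With GC and length trends removed it was 590, of which 37.3% were higher against 63.6% before. The main fit used no pairing by replicate number. The correlations of deviations were 0.409, -0.026 and 0.353 for the same number, and from -0.482 to 0.304 for unlike numbers. These few values do not settle whether the numbers pair the samples. With a replicate block and every library its own sample, 4 members were called, Odc1 among them, and 2117 genes against 1818 without the block.

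Between MSC+RAW and MSC, 1 member was called. The number was 2 with trends removed and 1 to 2 without 1 library. Using the library number series as a block was an alternative chosen after the data were seen, and it left the number of members called as it was in the 3 comparisons among MSC groups and in OVX against sham. With trends removed 2165 genes were called, against 3360 before, and 52.1% of the calls were higher, against 41.5%. The cause of these changes was not tested. The replicate numbers of the labels could not be used as a block for the MSC groups, because the columns of MSC+RAW and MSC+RAW-LPS carry no matching numbers. Leaving out both libraries of MSC+RAW empties that group and gives no value for its comparisons. Low counts of Nos2 limit the precision in BMMs, MSC and MSC+RAW.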
